A study of Mus musculus with 6 samples.

Results

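Transcription factors that give hepatocytes their identity, 8 in number, were followed in the livers of Retnla-transgenic and non-transgenic mice: Onecut1, Onecut2, Hnf4a, Foxa1, Foxa2, Foxa3, Cebpa and Prox1. Their 16 probe sets were those of the array whose platform annotation gives exactly 1 gene symbol and names 1 of these genes, and the genes make up 8 of the 18193 that the array names in this way. The members were listed by name, with earlier results of these data known. The measured value used in choosing among probe sets was the mean log2 signal over the 6 arrays, which decided the probe set that stands for a gene. That mean was 9.85 for the chosen probe set of Onecut1 and 9.19 for the next one, 10.22 and 10.05 for Onecut2, 13.82 and 12.79 for Hnf4a, and 9.03 and 8.74 for Prox1. Foxa1, Foxa2, Foxa3 and Cebpa each had 1 probe set.

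The tested mice were 3 Retnla-transgenic males of the C57BL6/J strain background (Tg 5, Tg 6 and Tg 7), and they were set against 3 non-transgenic males of the same background (non-Tg 1, non-Tg 2 and non-Tg 3). Mice of both genotypes were 3 months old and had eaten a high-fat diet with 21% fat and 0.15% cholesterol for 4 weeks, from 8 weeks of age. The sources used here name neither the promoter of the transgene nor its founder lines. Liver RNA of each mouse was measured on 1 Affymetrix mouse expression array, and precision is limited by having 3 arrays per genotype.

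Hepatocyte identity is held by a small network of factors that bind each other's genes as well as the genes of the finished hepatocyte. FOXA proteins open closed chromatin, HNF4A and C/EBP alpha (the product of Cebpa) then drive secreted proteins and metabolic enzymes, the ONECUT factors act in both hepatocyte and bile duct development, and PROX1 is needed for liver outgrowth and restrains HNF4A and the nuclear receptor LRH-1 at bile acid genes. In adult liver the same factors keep the hepatocyte programme running.

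The sequences before the transcription starts of Onecut1 and Foxa3, the 2 members with an unadjusted limma p under 0.05 on the probe set that stands for the gene, and of Hnf4a and Foxa2, which are textbook targets of ONECUT1, are shown so that the network can be read beside the signals. They come from RefSeq on build GRCm38.p6, and windows were read for 7 of the 8 genes, all but Onecut2. Each covers the 250 bases before a start, or less where an annotated transcript begins inside it, written 5′ to 3′ on the gene's strand, with a match to the ONECUT core in capitals. Onecut1 lies on the plus strand at chr9:74861671-74861920, the upstream Hnf4a window on the plus strand at chr2:163506607-163506810, the downstream Hnf4a window on the plus strand at chr2:163546905-163547154, the most upstream of the Foxa2 windows on the minus strand at chr2:148046970-148047219, and Foxa3 on the minus strand at chr7:19023540-19023789.
Onecut1: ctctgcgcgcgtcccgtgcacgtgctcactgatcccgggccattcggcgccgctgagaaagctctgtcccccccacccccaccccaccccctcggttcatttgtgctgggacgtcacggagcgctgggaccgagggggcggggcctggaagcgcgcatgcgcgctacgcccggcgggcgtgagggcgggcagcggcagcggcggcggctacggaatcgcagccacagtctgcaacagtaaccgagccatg
Hnf4a upstream: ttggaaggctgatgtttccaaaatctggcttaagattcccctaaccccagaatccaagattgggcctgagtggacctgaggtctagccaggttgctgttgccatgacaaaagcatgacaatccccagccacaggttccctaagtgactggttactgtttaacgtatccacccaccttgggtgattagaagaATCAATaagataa
Hnf4a downstream: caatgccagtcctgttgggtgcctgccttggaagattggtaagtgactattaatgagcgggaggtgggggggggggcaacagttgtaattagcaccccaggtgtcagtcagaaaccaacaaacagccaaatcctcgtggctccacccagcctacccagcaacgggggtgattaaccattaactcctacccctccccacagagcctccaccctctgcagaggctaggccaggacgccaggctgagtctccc
Foxa2: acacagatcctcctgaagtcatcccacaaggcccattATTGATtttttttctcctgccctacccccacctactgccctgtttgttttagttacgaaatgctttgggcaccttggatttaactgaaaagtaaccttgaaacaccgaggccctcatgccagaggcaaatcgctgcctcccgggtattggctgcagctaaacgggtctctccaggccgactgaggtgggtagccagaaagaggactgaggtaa
Foxa3: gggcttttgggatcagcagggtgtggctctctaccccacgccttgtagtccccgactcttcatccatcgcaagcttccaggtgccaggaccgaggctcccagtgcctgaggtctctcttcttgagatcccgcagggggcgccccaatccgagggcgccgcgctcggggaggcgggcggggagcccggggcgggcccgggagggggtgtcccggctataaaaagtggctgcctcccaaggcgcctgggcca

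The ONECUT core, ATCGAT or ATTGAT on either strand, was found in the upstream Hnf4a window, as its reverse complement ATCAAT from 13 to 8 bases before the end of the printed window, where the annotated gene begins. It was also in the printed Foxa2 window, as ATTGAT from 213 to 208 bases before its start. The other Foxa2 windows, at starts further downstream and not printed, held no ONECUT core. Of all 32851 windows of this length in the table, 7.397% held that core. A FOXA core (TGTTTAC or TGTTTGC) was in none of the printed windows and in 7.294% of all windows, but it stood in the Foxa1 window as GTAAACA from 141 to 135 bases before the start, and in 1 Prox1 window. As background, adult liver uses the downstream Hnf4a promoter. The same search for CAAAGTCCA, CAAAGTCAA, CAAAGGTCA or CAAAGTTCA (HNF4A, 1.364% of all windows) and for TTGCGCAA, TTGCGTAA, TTGCACAA or TTGCATAA (C/EBP, 1.887%) found no match in any of the 11 windows of these genes. A match is a run of letters and was not tested as a binding site.

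Retnla, which encodes a secreted resistin-like protein, separated the genotypes as labelled: its log2 signal was 16.04, 15.91 and 16.04 in Tg 5, Tg 6 and Tg 7, and 6.03, 7.41 and 6.48 in non-Tg 1, non-Tg 2 and non-Tg 3. Of 22 hepatocyte markers, 19 had a value, and the 2 brightest hardly differed: Apoa1, the main protein of high density lipoprotein, stood at 16.70 in Tg livers and 16.67 in non-Tg livers and albumin (Alb) at 16.28 in Tg livers and 16.32 in non-Tg livers on average. The median log2 difference of the 19 was -0.0005 (-0.01 with the block described next), with 8 higher and 11 lower, and 0 passed limma's adjusted test. At an unadjusted limma p under 0.05, 2 were higher and 1 lower, where 2.93% and 3.12% of all genes were. Named after their values were seen, these were Tat (1.12) and Ass1 (0.60), and Apob (-0.20). The summed signal of the 19 ran from 869865 to 921880 in Tg livers and from 856233 to 890758 in non-Tg livers. The arrays fell into 2 sets by bioC, a bacterial transcript added as a hybridization control: its mean log2 signal was 11.33, 11.45 and 11.21 in Tg 7, non-Tg 2 and non-Tg 3 (the higher set) and 9.94, 9.83 and 9.93 in Tg 5, Tg 6 and non-Tg 1 (the lower set). The labels name no such sets, so what else the arrays of a set share is unknown, and the 8 genes and the medians of the gene lists are also given with the set as a block in the fit. Kupffer cell markers stood apart in Tg 6, with a summed signal of 79237 against 33905 to 47989 in the other 5 mice.

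Onecut1 and Onecut2 were lower and Foxa3 and Prox1 higher in Tg livers, while Hnf4a, Foxa2 and Cebpa had average differences near 0. None of the 8 genes passed limma's test over all 12705 genes at an adjusted p of 0.05, which called 0.0157% of all genes, and 0 of the 16 probe sets passed the fit over probe sets (0.00881% of all). At an unadjusted p under 0.05 limma counted 2 of the 8, Onecut1 and Foxa3, where the share over all genes was 6.05%, and 5 of the 16 probe sets, where the share was 5.76%. The median log2 difference was 0.01 over the 8 genes and 0.01 over all genes tested, and the median size of the difference regardless of sign was 0.30 for the 8 and 0.18 for all genes. Because the 8 were chosen with earlier results of these data known, these counts and sizes describe them and are no test of the group.

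**Figure D1:**
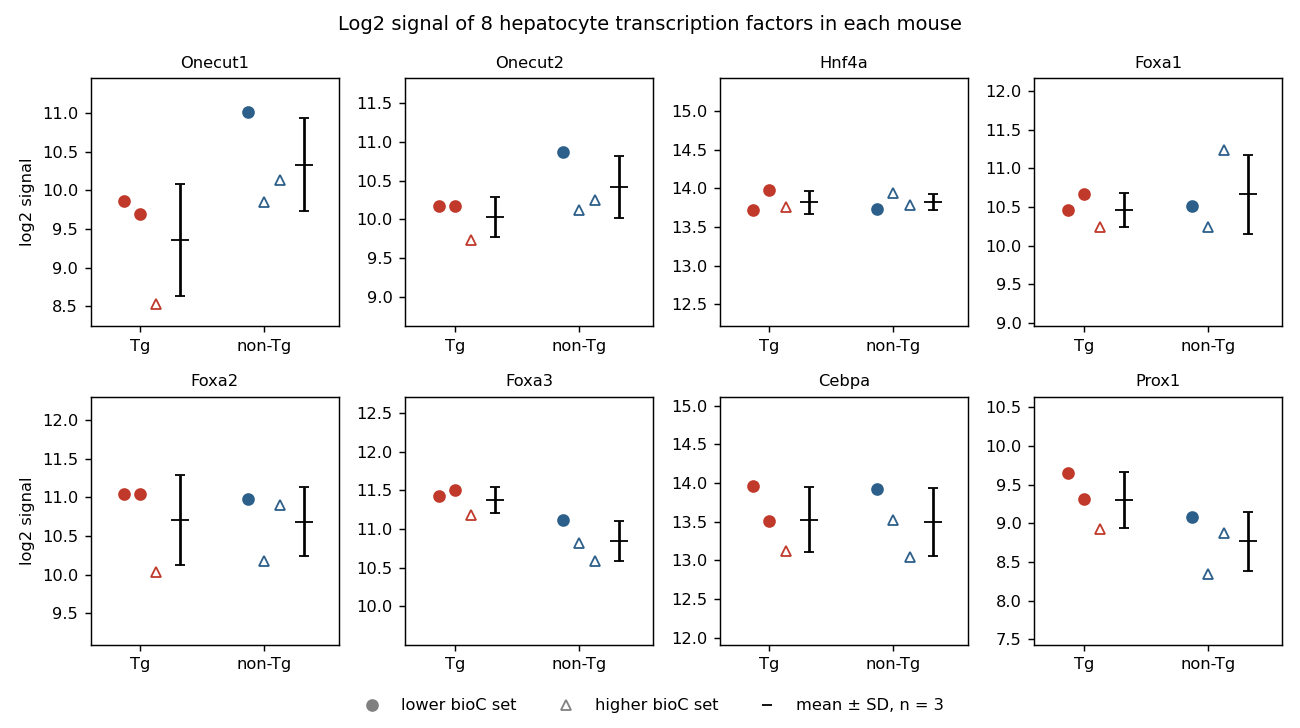
Log2 signal of the probe set that stands for each of the 8 genes (vertical axis, every panel spanning the same range) in Tg and non-Tg livers, 1 point per mouse. Filled circles are arrays of the lower bioC set, open triangles those of the higher bioC set, and bars are mean ± SD of 3 mice. Onecut1 was lowest in Tg 7 at 8.53 and highest in non-Tg 1 at 11.01, and for Foxa3 the lowest Tg mouse exceeded the highest non-Tg mouse.

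Onecut1 encodes HNF6, a homeodomain factor with a cut domain that activates Hnf4a, Foxa2 and metabolic genes and is needed for normal bile duct formation. Its log2 signal was 9.86, 9.69 and 8.53 in Tg 5, Tg 6 and Tg 7, against 11.01, 9.85 and 10.13 in non-Tg 1, non-Tg 2 and non-Tg 3. The groups overlapped by a hair, because Tg 5 lay just above non-Tg 2, while Tg 7 was far below and non-Tg 1 far above the rest. Onecut1 thus differed by -0.97 ± 0.37 on the log2 scale (SE; limma adjusted p = 0.787), which is 0.511-fold with bounds of 0.286 and 0.912 at 95% confidence. An exact 2-sided permutation test over the 20 assignments of mice gave p = 0.2 for Onecut1, where the smallest possible value is 0.1. In pieces of whole liver, fewer cells of a type and less RNA per cell cannot be told apart.

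The second Onecut1 probe set, 1421447_at, pointed the same way. It read 9.40, 9.01 and 8.20 in Tg 5, Tg 6 and Tg 7, against 9.85, 9.21 and 9.47 in non-Tg 1, non-Tg 2 and non-Tg 3. Tg 5 again lay between the non-Tg values, and the other Tg mice lay below all of them. The log2 difference of this probe set was -0.64 ± 0.29 (SE; limma adjusted p = 0.848 over 22702 probe sets).

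Inside each set of arrays the Onecut1 gap was wider than over all mice. Within the lower bioC set the mean of Tg 5 and Tg 6 differed by -1.23 from non-Tg 1, and within the higher set Tg 7 differed by -1.46 from the mean of non-Tg 2 and non-Tg 3. On the second probe set those differences were -0.65 and -1.14. With the set of arrays as a block, Onecut1 differed by -1.35 ± 0.15 (SE; limma adjusted p = 0.0446), so it fell past the threshold in that fit, at rank 3 by p among 12705 genes. That fit called 0.0315% of all genes, and over probe sets it called 1 of the 16 (Onecut1 1450252_at) and 0.022% of all. At an unadjusted limma p under 0.05 it counted 3 of the 8 genes (5.67% of all genes), of which Onecut1 and Onecut2 were lower (2.98% of all genes were), and 6 of the 16 probe sets (5.68% of all). Of 15 added fits that joined the block with 1 more choice, 7 called Onecut1 at a limma adjusted p under 0.05. Those were quantile normalization (0.0415), median centring (0.0369), a filter at the 20th percentile (0.0254) and robust variance (0.0217). Onecut1 was also called with 16 (0.0345) or 64 (0.0283) added before the log, and without Tg 5 (0.0228). The call ended without Tg 6 (0.0730), Tg 7 (0.626), non-Tg 1 (0.457), non-Tg 2 (0.129) or non-Tg 3 (0.203). It also ended without limma's intensity trend (0.869), with a filter at the 60th percentile (0.0517) or with the mean of both probe sets (0.277). The log2 difference stayed between -1.46 and -1.12 in all of these fits. In the fit with no block the difference was -0.56 without Tg 7 and -0.63 without non-Tg 1.

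Onecut2 encodes the second ONECUT factor, which overlaps with HNF6 in liver and bile duct development. On the probe set that stands for it, 1440005_at, its log2 signal was 10.17, 10.18 and 9.73 in Tg 5, Tg 6 and Tg 7, against 10.87, 10.12 and 10.24 in non-Tg 1, non-Tg 2 and non-Tg 3. The groups overlapped, with non-Tg 1 well above the other mice. The log2 difference was -0.39 ± 0.21 (SE; limma adjusted p = 0.820), and it was -0.16 without non-Tg 1 and -0.24 without Tg 7. With the set of arrays as a block it was -0.58 ± 0.13 (SE; limma adjusted p = 0.513).

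Both other Onecut2 probe sets separated the genotypes without overlap. Probe set 1444980_at read 9.12, 9.43 and 9.27 in Tg 5, Tg 6 and Tg 7, against 9.68, 9.95 and 9.86 in non-Tg 1, non-Tg 2 and non-Tg 3. Every Tg value was thus at least 0.25 log2 units under the non-Tg ones, and the probe set differed by -0.56 ± 0.16 (SE; limma adjusted p = 0.811). Probe set 1460044_at read 9.72, 9.91 and 10.02 in the Tg mice and 10.32, 10.29 and 10.06 in the non-Tg mice, in the same order of mice. Its groups missed each other by 0.04 log2 units, and the difference was -0.34 ± 0.15 (SE; limma adjusted p = 0.848). All 5 ONECUT probe sets were lower in Tg livers on average, within both sets of arrays as well as over all mice.

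Bile duct markers leaned the same way as the ONECUT genes. Of 18 listed, 11 had a value, 8 of them lower in Tg livers, where 6092 of all 12705 genes were lower. Their median log2 difference was -0.47 (-0.42 with the block), and 0 passed limma's adjusted test. Sox9, Krt7, Sctr and Krt19 were dim, with mean log2 signals from 5.95 to 6.25, under the lowest array median of 6.49. The SE of their differences ran from 0.51 to 0.81. The summed signal of all 11 ran from 3377 to 5245 in Tg livers and from 3984 to 4806 in non-Tg livers, so the sums overlapped. Cdh1, the epithelial cadherin, and Slc4a2, an anion exchanger, the brightest of the list and both also made outside bile ducts, differed by -0.08 and 0.18. Bicc1, an RNA-binding protein of duct epithelium, and Wfdc2, a secreted protease inhibitor, named here after their values were seen, were the 2 of the 11 with an unadjusted limma p under 0.05, both lower, where 3.12% of all genes were lower by that rule. Bicc1 read 7.47, 7.98 and 6.84 in Tg 5, Tg 6 and Tg 7 and 8.40, 8.44 and 8.14 in non-Tg 1, non-Tg 2 and non-Tg 3 (log2 difference -0.90), although its other probe sets gave 0.02 and -0.67. Wfdc2 read 9.20, 9.28 and 9.01 in the Tg mice and 9.74, 9.64 and 9.52 in the non-Tg mice, a log2 difference of -0.47. The duct keratin Krt19 overlapped between the groups, at 5.92, 6.75 and 6.24 in Tg 5, Tg 6 and Tg 7 and at 6.65, 6.42 and 5.50 in non-Tg 1, non-Tg 2 and non-Tg 3. The part of bile duct cells in the ONECUT differences was not tested.

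Foxa3 encodes HNF3 gamma, a forkhead pioneer factor that is prominent in adult liver. Its log2 signal was 11.43, 11.51 and 11.18 in Tg 5, Tg 6 and Tg 7, against 11.11, 10.82 and 10.59 in non-Tg 1, non-Tg 2 and non-Tg 3. Even the lowest Tg mouse exceeded the highest non-Tg mouse, by 0.07 log2 units at the closest. This was 1 of the 8 genes without overlap between genotypes, against 11.7% of all genes (6.04% with Tg higher and 5.64% with Tg lower). Foxa3 thus differed by 0.53 ± 0.16 on the log2 scale (SE; limma adjusted p = 0.735), which is 1.44-fold with bounds of 1.13 and 1.84 at 95% confidence. The exact permutation p for Foxa3 was 0.1, the lowest value that this design allows. Foxa3 differed by 0.36 within the lower and 0.48 within the higher bioC set, and by 0.42 ± 0.12 (SE; limma adjusted p = 0.721) with the sets as a block.

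The other forkhead members differed less on average. Foxa1, HNF3 alpha, read 10.46, 10.67 and 10.24 in Tg 5, Tg 6 and Tg 7, against 10.52, 10.24 and 11.23 in non-Tg 1, non-Tg 2 and non-Tg 3. The groups overlapped, with non-Tg 3 above all other mice, and the log2 difference was -0.21 ± 0.24 (SE; limma adjusted p = 0.880). It was 0.05 within the lower and -0.50 within the higher bioC set, and -0.22 ± 0.26 with the block (SE; limma adjusted p = 0.915). Foxa2, HNF3 beta, read 11.04, 11.05 and 10.04 in the Tg mice, against 10.98, 10.18 and 10.90 in the non-Tg mice. Here Tg 7 and non-Tg 2, 1 mouse of each genotype, stood apart under the other 4 mice, and the difference was 0.02 ± 0.29 (SE; 95% confidence interval -0.64 to 0.68; limma adjusted p = 0.995). Foxa2 differed by 0.06 within the lower and -0.50 within the higher set, and by -0.22 ± 0.21 with the block (SE; limma adjusted p = 0.908).

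Hnf4a encodes the nuclear receptor at the centre of the hepatocyte network, and its mutation in people causes a form of inherited diabetes. Its brightest probe set, 1427001_s_at, read 13.71, 13.98 and 13.76 in Tg 5, Tg 6 and Tg 7, against 13.74, 13.94 and 13.79 in non-Tg 1, non-Tg 2 and non-Tg 3. The 6 mice lay within a narrow band with the genotypes mixed. The log2 difference was -0.01 ± 0.10 (SE), with a 95% confidence interval of -0.23 to 0.22 (limma adjusted p = 0.995), and it was 0.11 within the lower and -0.11 within the higher bioC set. With the sets as a block it was -0.0004 ± 0.10 (SE; limma adjusted p = 0.9999).

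The 4 Hnf4a probe sets did not run alike. Probe set 1421983_s_at read 13.17, 13.28 and 12.48 in Tg 5, Tg 6 and Tg 7, against 12.97, 12.45 and 12.38 in non-Tg 1, non-Tg 2 and non-Tg 3. The 3 mice of the lower bioC set were the 3 highest, whichever their genotype. The dimmer probe set 1450447_at showed the same split, at 10.99, 11.02 and 10.11 in the Tg mice and 10.49, 10.27 and 10.08 in the non-Tg mice. Both were designed on the same messenger RNA record, and their log2 differences between genotypes, 0.38 ± 0.22 and 0.43 ± 0.24 (SE), became 0.16 ± 0.09 and 0.23 ± 0.15 with the sets as a block, with limma adjusted p from 0.848 to 0.900. The remaining probe sets, 1427001_s_at and 1427000_at, share another record, and 1427000_at differed by -0.23 ± 0.13 (SE; limma adjusted p = 0.848).

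**Figure D2:**
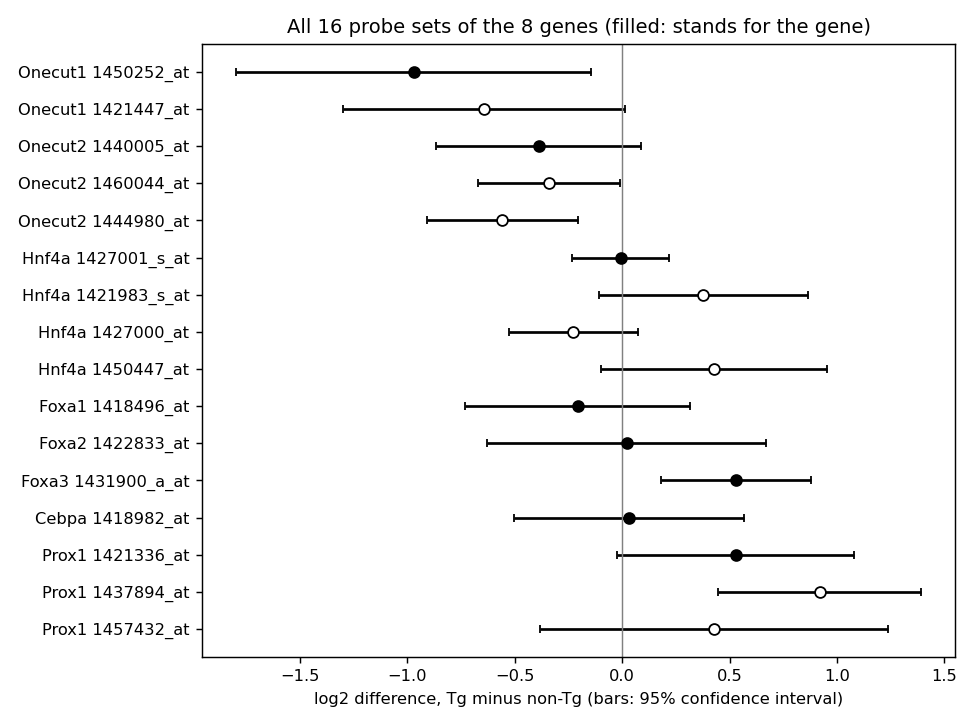
Log2 difference, Tg minus non-Tg (horizontal axis), of all 16 probe sets with its 95% confidence interval from 1 limma fit over 22702 probe sets; filled points stand for their gene. The 5 ONECUT probe sets lie left of 0, between -0.97 and -0.34, the 3 Prox1 probe sets and Foxa3 lie right of it, and the 4 Hnf4a probe sets lie on both sides.

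Cebpa encodes C/EBP alpha, a leucine zipper factor that drives gluconeogenic, urea cycle and secretory genes and holds back division. Its log2 signal was 13.97, 13.50 and 13.12 in Tg 5, Tg 6 and Tg 7, against 13.93, 13.52 and 13.04 in non-Tg 1, non-Tg 2 and non-Tg 3. Each genotype covered almost the same range, so the spread between mice was far larger than the log2 difference of 0.03 ± 0.24 (SE; 95% confidence interval -0.51 to 0.57; limma adjusted p = 0.987). Cebpa differed by -0.19 within the lower and -0.17 within the higher bioC set, and by -0.18 ± 0.16 with the block (SE; limma adjusted p = 0.901).

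Prox1 encodes a homeodomain factor of hepatocytes and of lymphatic endothelium that acts in liver mainly as a corepressor. On the probe set that stands for it, 1421336_at, its log2 signal was 9.65, 9.31 and 8.93 in Tg 5, Tg 6 and Tg 7, against 9.09, 8.35 and 8.88 in non-Tg 1, non-Tg 2 and non-Tg 3. Tg 7 lay between the non-Tg values and the other Tg mice above them. The log2 difference was 0.53 ± 0.25 (SE; limma adjusted p = 0.807), and it was 0.32 without non-Tg 2 and 0.35 without Tg 5. With the array sets as a block it was 0.36 ± 0.20 (SE; limma adjusted p = 0.855).

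Another Prox1 probe set separated the genotypes more widely. Probe set 1437894_at read 9.27, 9.44 and 8.89 in Tg 5, Tg 6 and Tg 7, against 8.06, 8.53 and 8.24 in non-Tg 1, non-Tg 2 and non-Tg 3. The lowest Tg mouse was 0.36 log2 units above the highest non-Tg mouse, and the difference was 0.92 ± 0.21 (SE; limma adjusted p = 0.735), or 1.29 within the lower and 0.50 within the higher bioC set. The third probe set, 1457432_at, overlapped between genotypes and differed by 0.43 ± 0.36 (SE; limma adjusted p = 0.865). Over all 16 probe sets of the 8 genes, 2 were higher and 2 lower in Tg livers without overlap, against 5.87% and 5.26% of the 22702 probe sets tested, and the 4 belong to Onecut2, Foxa3 and Prox1.

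Lymphatic endothelial markers, the other known source of Prox1 in liver, had a lower summed signal in Tg livers, 5221 to 5683 against 5807 to 6524 in non-Tg livers. Of 9 listed, 7 had a value, with a median log2 difference of 0.06 (-0.06 with the block) and 5 higher. Reln, a matrix glycoprotein also made by stellate cells, made up much of that sum and differed by -0.52, while Flt4, the receptor for the lymphatic growth factor VEGF-C, differed by 0.12 (-0.10 with the block) and the membrane glycoprotein Pdpn by 0.39. Mmrn1, dim at a mean log2 signal of 6.1, differed by 0.99, with every Tg value above the non-Tg ones, as in 6.04% of all genes. Itga9 differed by -0.74, Nr2f2 by 0.06 and Fgl2 by 0.03. None of the 7 passed limma's adjusted test, and 1 of them, Reln, was lower at an unadjusted p under 0.05, where 3.12% of all genes were. A second Reln probe set, dim at a mean log2 signal of 6.1, gave 0.89 ± 0.78 (SE).

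Most of these genes were lower on average in the higher bioC set. In the fit with genotype and set, 6 of the 8 genes were lower in the higher than in the lower bioC set at an unadjusted limma p under 0.05, where 6.5% of all genes were lower by that rule, and 0 of the 8 passed the adjusted test (0.00787% of all genes did). Over probe sets 10 of the 16 were lower by that rule (6.53% of all), and 1, Onecut1 1450252_at, passed the adjusted test (0.0793% of all). The higher set minus the lower set was -1.13 ± 0.15 for Onecut1, -0.72 ± 0.21 for Foxa2, -0.63 ± 0.16 for Cebpa, -0.56 ± 0.13 for Onecut2, -0.51 ± 0.20 for Prox1 and -0.35 ± 0.12 for Foxa3 (SE of the log2 difference), where the limma adjusted p was lowest for Onecut1 (0.0616) and highest for Prox1 (0.388). For Hnf4a and Foxa1 it was 0.02 and -0.05. Within genes the probe sets split again: Prox1 1457432_at differed by -0.86 and 1437894_at by -0.06 between the sets, and Onecut2 1440005_at by -0.56 but 1444980_at and 1460044_at by 0.11 and 0.03. The Onecut2 and Prox1 probe sets that separated the genotypes without overlap were those that varied little with the set, while Foxa3, also without overlap, differed by -0.35. Each genotype has arrays in both sets, but unevenly, with Tg 5, Tg 6 and non-Tg 1 in the lower one. The part of the set in whether the genotypes overlapped was not tested. The median set difference over all genes was -0.02.

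**Figure D3:**
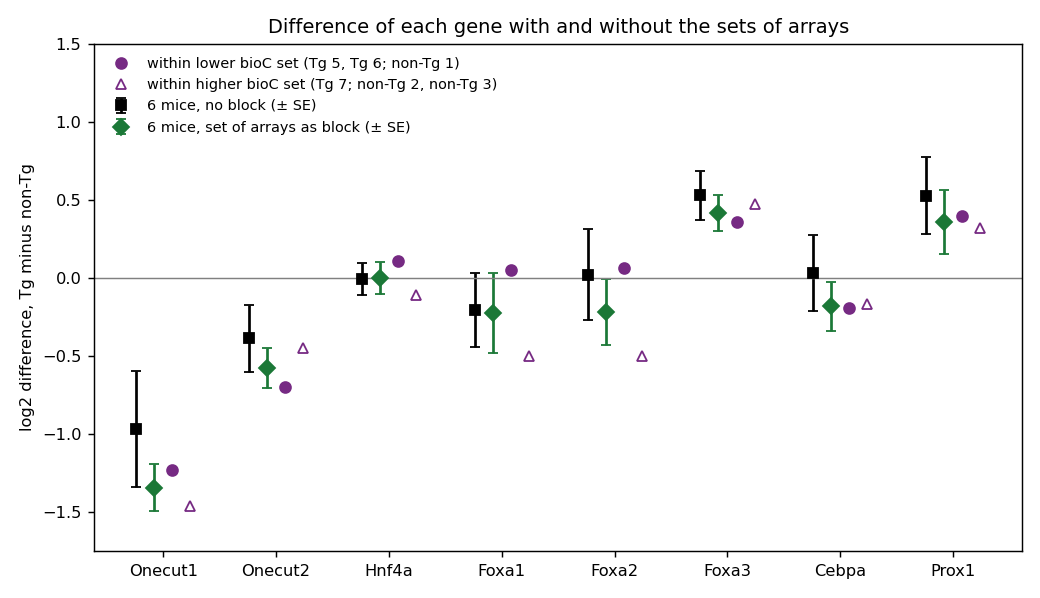
Log2 difference, Tg minus non-Tg (vertical axis), of the 8 genes from the fit with no block (squares, ± SE), the fit with the set of arrays as a block (diamonds, ± SE) and within each set (circles and triangles, values with no error because 1 side is a single mouse). Onecut1 stood at -0.97, -1.35, -1.23 and -1.46, and Foxa3 and Prox1 lay above 0 in all 4 estimates.

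Partner transcription factors of the network were spread to both sides. Of 41 listed, 38 had a value, 22 higher and 16 lower in Tg livers, with a median log2 difference of 0.01 (-0.04 with the block), and 0 passed limma's adjusted test. At an unadjusted p under 0.05, 4 were higher and 3 lower, where 2.93% and 3.12% of all genes were. Nr5a2, the nuclear receptor LRH-1, read 10.23, 10.23 and 10.69 in Tg 5, Tg 6 and Tg 7, against 10.97, 10.95 and 10.89 in non-Tg 1, non-Tg 2 and non-Tg 3, without overlap. Nr5a2 differed by -0.55 ± 0.15 (SE; limma adjusted p = 0.735), while its other probe sets gave -0.02 and 0.04. Gata6, a zinc finger factor of early liver bud growth, read 9.45, 9.75 and 8.93 in the Tg mice and 8.92, 8.60 and 8.19 in the non-Tg mice, only just without overlap. Its log2 difference was 0.81 ± 0.26 (SE; limma adjusted p = 0.761), and the other Gata6 probe sets gave 0.48 and 0.50. Nfil3, a repressor in clock output, differed by 0.52, Lhx2, a homeodomain factor of stellate cells, by -0.86, and Tbx3, a repressor of hepatoblast growth arrest genes, by -0.66 (limma adjusted p of 0.779, 0.787 and 0.807 in that order). For Tbx3 the other probe sets ran from -1.83 to 0.29.

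The medians of the factors' textbook targets lay near 0. Of 16 genes listed as targets of ONECUT1, 13 had a value, 3 of which are Onecut2, Hnf4a and Foxa2 themselves, and the median log2 difference was 0.00 (-0.0004 with the block) with 7 higher and 6 lower. At an unadjusted limma p under 0.05, 3 were higher and 1 lower, where 2.93% and 3.12% of all genes were, and 0 passed the adjusted test. The 3 higher ones were Cyp7a1 and Cyp8b1, bile acid synthesis enzymes, and Pck1, which commits carbon to glucose synthesis. Cyp7a1, the rate-limiting one, read 13.29, 13.15 and 13.41 in Tg 5, Tg 6 and Tg 7, against 12.92, 12.47 and 12.64 in non-Tg 1, non-Tg 2 and non-Tg 3. Its groups did not overlap, and it differed by 0.61 ± 0.13 (SE; limma adjusted p = 0.432). Cyp8b1 read 12.63, 13.10 and 13.30 in Tg 5, Tg 6 and Tg 7, against 11.91, 12.37 and 12.75 in non-Tg 1, non-Tg 2 and non-Tg 3, so that only Tg 5 lay under a non-Tg mouse. The glucose transporter Slc2a2 was the lower one, at 13.44, 13.58 and 13.93 in the Tg mice and 13.78, 14.24 and 14.09 in the non-Tg mice, and it differed by -0.39 ± 0.15 (SE; limma adjusted p = 0.787).

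HNF4A targets were likewise spread to both sides. Of 35 listed, 32 had a value, 17 higher and 15 lower, with a median of 0.00 (0.01 with the block). At an unadjusted limma p under 0.05 there were 3 higher (Cyp7a1, Cyp8b1 and Pck1) and 1 lower (Apob, the core protein of very low density lipoprotein, at -0.20). By that rule 2.93% of all genes were higher and 3.12% lower. The other Apob probe set gave a log2 difference of 0. FOXA targets had a median of 0.00 over 15 of 19 genes (0.00 with the block) and C/EBP alpha targets one of 0.05 over 20 of 25 genes (0.07 with the block), and 0 members of these 3 lists passed the adjusted test. Tat, tyrosine aminotransferase, sits in both of these last lists. It read 14.51, 15.33 and 15.10 in Tg 5, Tg 6 and Tg 7, against 13.74, 13.50 and 14.36 in non-Tg 1, non-Tg 2 and non-Tg 3, so the groups did not overlap. Tat differed by 1.12 ± 0.24 on the log2 scale (SE; limma adjusted p = 0.469). Pck1 read 14.88, 15.01 and 14.78 in the Tg mice and 14.39, 14.03 and 14.80 in the non-Tg mice, and its difference of 0.49 ± 0.17 (SE; limma adjusted p = 0.779) was larger on its second probe set, 1.04 ± 0.34 (SE). On the lower side at an unadjusted p under 0.05 stood Slc2a2 and Hadh, a fatty acid oxidation enzyme (-0.18), among FOXA targets, and Bdh1, a ketone body enzyme (-0.35), among C/EBP alpha targets. Their other probe sets gave -0.31 and -0.0039 for Hadh and -0.15 for Bdh1.

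**Figure D4:**
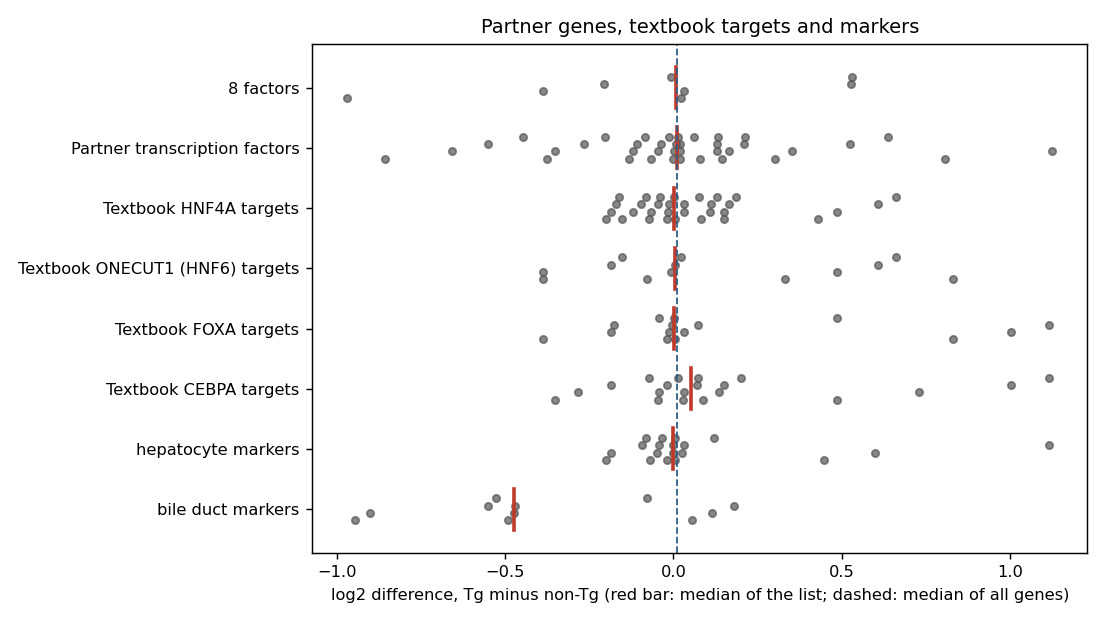
Log2 difference, Tg minus non-Tg (horizontal axis), of each measured gene in the 8 factors and 7 gene lists, 1 point per gene, with the median of each list as a red bar and the median of all 12705 genes as a dashed line. The medians of the 8 factors, their partners and the target lists lie between 0.00 and 0.05, and that of the bile duct markers lies at -0.47.

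The 2 members that varied most over the 6 mice were Onecut1 (SD 0.80) and Foxa2 (SD 0.46). Likeness to them was measured as the root mean square difference in log2 signal over the 6 mice after centring each gene on its own mean. The 3 genes most like Onecut1 were Padi1, a protein arginine deiminase (0.20), Tgm5, a transglutaminase (0.22), and Ccdc8 (0.23), with log2 differences between genotypes of -0.91, -0.87 and -0.80 and limma adjusted p from 0.824 to 0.830. The 3 most like Foxa2 were 1700008J07Rik, Plekhf2, an endosomal protein, and Icam2, an adhesion molecule of endothelium, each at 0.12 log2 units. Such nearness over 6 mice was picked from 12705 genes and is a description of these arrays.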

How the data were processed

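Liver RNA of 6 mice was measured on 6 arrays. The table the authors deposited holds log2 signals of 45101 probe sets. GCOS is named in the submitters' processing notes, with version and scaling target not given in the sources used here. Antilogged signals have the same mean of 500.0 on every array after 2% is trimmed at each end. Values were used as deposited, with no constant added. No detection calls or scanner files were used, so a dim signal could not be called absent. Control probe sets and those with several symbols or none were set aside.

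Probe sets with a mean above the 40th percentile (log2 signal 5.63) were kept, and the one with the highest mean stood for each of 12705 genes. All 16 member probe sets passed. The genotypes were compared in limma 3.58.1 in R 4.3.3 (lmFit, eBayes with an intensity trend, 2-sided, Benjamini-Hochberg over all genes; 4 residual degrees of freedom, 9.61 after moderation). The other probe sets come from 1 fit over 22702 probe sets. The procedure was tested on simulated data. Each array is an individual sample by its labels. Members, gene lists and the sets of arrays were chosen with earlier results of these data known. From each list of partners or targets the text names up to 5 genes of smallest p below 0.05, from marker lists the 2 brightest, and further markers are said to be named after their values were seen. Krt19 was also picked that way. All 7 lymphatic markers with a value are given, and Sox9, Krt7 and Sctr are named for their dim signal. Alternatives were other constants, filters, scalings, moderation, array weights, probe set averages, the set of arrays as a block, and leaving out each mouse.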

Additional observations from a re-analysis of the deposited data

How the results depend on the processing

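No paired analysis was possible because the labels give the 2 genotypes different mouse numbers. The count of the 8 genes past the adjusted threshold was 0 in 17 of 18 alternatives and 1, Onecut1, with the set of arrays as a block; leaving out single mice it was 0 throughout. The median difference over the 8 genes ran from -0.20 to 0.13, less than the SD of 0.24 between mice away from its value. Over the 18 alternatives Onecut1 ran from -1.35 to -0.56, Onecut2 from -0.58 to -0.16, Foxa3 from 0.41 to 0.67 and Prox1 from 0.32 to 0.71, all without a change of sign. The genes near 0 changed sign. Hnf4a stood at 0.0106 with quantile normalization, at 0.0119 with array weights and at 0.14 with the mean of its probe sets, and from -0.0884 to 0.0533 with a mouse left out. Foxa2 stood at -0.053 with arrays centred on the median and at -0.22 with the block, and from -0.23 to 0.36 with a mouse left out. Cebpa stood at -0.0437 and -0.18 in those fits and from -0.20 to 0.25 with a mouse left out. Foxa1 ran from -0.42 to 0.0761 with a mouse left out. The cause of these changes was not tested. Members at an unadjusted p under 0.05 numbered 2, but 1 without the intensity trend or with robust variance, 3 with median centring, array weights, the block or without non-Tg 2, and 4 with averaged probe sets. Over all genes the adjusted count was 2, but 4 with 16 added before the log, 6 with 64 added, 6 with a filter at the 20th percentile, 5 with median centring, 4 with robust variance, 4 with the block and 3 without Tg 5, Tg 6, Tg 7 or non-Tg 2, and the unadjusted count was 769, but 1193 without Tg 7 and 469 without non-Tg 2. The fits that join the block with 1 more choice were chosen after seeing the data.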

Other observations

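Markers of other cells that a piece of liver can hold were read beside the 8 factors, and 0 members of these lists passed limma's adjusted test. Erythroid genes had a median log2 difference of 0.62 over 4 of 12 listed genes (0.60 with the array sets as a block). Their summed signal ran from 5736 to 7355 in Tg livers and from 4216 to 4668 in non-Tg livers, without overlap. Most of that sum came from 1 gene, Alas2, which starts heme synthesis and differed by 0.46. Tfrc, the transferrin receptor, differed by 0.43. Intestinal epithelial genes ran the other way in sum, from 9267 to 10117 in Tg livers and from 10626 to 13013 in non-Tg livers, on 3 of 10 genes with a median of 0.26 (0.29 with the block), most of it from Fabp2, a fatty acid binding protein (-0.35), while Lgals4 differed by 0.26.

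Of 16 Kupffer cell markers 14 were higher, where 6613 of all 12705 genes were. Their median of 0.24 became 0.06 with the array sets as a block, and their brightest members Slc40a1 and Csf1r differed by -0.24 and 0.28. With each marker centred on its own mean, their median was -0.01, 0.89 and -0.41 in Tg 5, Tg 6 and Tg 7. It was -0.12, -0.18 and -0.06 in non-Tg 1, non-Tg 2 and non-Tg 3, so the Tg mice lay on both sides of them. Stellate cell markers went both ways, 6 higher and 9 lower, around a median of -0.25 over 15 of 16 genes (-0.14 with the block). Their brightest members Dcn and Reln differed by -0.25 and -0.52. At an unadjusted limma p under 0.05, 2 were higher and 2 lower, where 2.93% and 3.12% of all genes were. Named after their values were seen, these were Rgs5 (0.81) and Acta2 (0.77), and Lrat (-0.93) and Reln. For lymphocytes and NK cells the marker median was 0.21 over 9 of 18 (0.19 with the block), with Zap70 at 0.47 and Ighm at 0.21. The median of sinusoidal endothelial markers was -0.01 over 19 genes with and without the block, with Clec4g at 0.12 and Fcgr2b at 0.09. Exocrine pancreas genes had a median of 0.09 over 6 of 13 (-0.06 with the block), with Cela1 at 0.16 and Cela2a at 0.06. Prss2, named after its values were seen, was the 1 of the 6 with an unadjusted limma p under 0.05. It was dim at a mean log2 signal of 6.2 and differed by 2.19, while its other probe set gave -0.56. The part of these cells in the differences of the 8 factors was not tested.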
